A study of Mus musculus with 6 samples.

Results

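Sympathoadrenal lineage transcription factors are the DNA-binding proteins that give sympathetic neurons and adrenal chromaffin cells their noradrenergic character. The group described here holds 7 genes, Phox2a, Hand1, Hand2, Gata2, Gata3, Isl1 and Insm1, chosen by name as core regulators of sympathetic neuron and neuroblastoma identity and matched to 7 of the 23358 gene rows of the table. RNA sequencing had been made from N1E115 cells, a mouse neuroblastoma line whose labels call it NOS1 positive, that is, positive for the neuronal nitric oxide synthase. One group of cells was kept for 3 days in 4% oxygen (O2), called hypoxia in the labels, and the other for 3 days in 20% O2, called normoxia, with 3 libraries in each, numbered 1 to 3. All 6 came from the same line, the labels name no genetic change or drug, and they give the tissue as brain and the cells as neuroblasts. Nothing in the labels shows that libraries sharing a group were grown apart. The p-values below therefore speak of library-to-library spread, which may be technical.

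In the embryo, bone morphogenetic proteins (BMPs) from the dorsal aorta act on migrating neural crest cells and switch on a network of factors that includes Phox2a, Hand2, Gata2, Gata3, Isl1 and Insm1. The factors activate each other and the genes of noradrenaline synthesis, among them Th and Dbh. In human neuroblastoma, a childhood tumour of this lineage, a set that includes HAND2, GATA3 and ISL1 binds its own enhancers and keeps the tumour cells in an adrenergic state.

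Total gene counts were 130916000 to 163695000 per library at 4% O2 and 124259000 to 139216000 at 20% O2. Levels are given in CPM, counts scaled to library size with TMM, which also corrects for library composition. Library 1 at 20% O2 stood farthest from the rest (-52.4 on principal component 1, 42.1% of variance), and the other 5 lay between -21.6 and 36.1. The 12 sympathetic neuron markers summed to 8701 to 9940 CPM at 4% O2 and 6909 to 7895 CPM at 20% O2, and 0 of the 12 were at 0. Chgb alone averaged 3481 CPM at 4% O2, against 2119 CPM at 20% O2. By the log2 fold change used below, 8 of the 12 were higher at 4% O2 and 4 lower. For 4 of the 12 all 4% O2 libraries exceeded all 20% O2 libraries, against 6.33% of all genes tested. For 1 of the 12, Snap25, all lay below them, against 3.72% of all genes tested. Summed levels of 7 mesenchymal cell markers were 8.24 to 17.9 CPM at 4% O2 and 5.24 to 36.7 CPM at 20% O2, with Lum at 0 throughout. The highest of these sums in each group was that of library 1, as also for the endothelial and blood cell sums below. Schwann and neural crest markers (7 genes) summed to 8.44 to 16.03 CPM at 4% O2 and 5.65 to 12.4 CPM at 20% O2. Endothelial markers (5 genes) summed to 4.31 to 6.21 CPM at 4% O2 and 2.02 to 10.004 CPM at 20% O2. Blood cell markers (5 genes in the table) summed to 0.8998 to 1.31 CPM at 4% O2 and 0.363 to 2.39 CPM at 20% O2, with Cd3e at 0 in all libraries.

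The factors differed widely in abundance, which was compared as CPM per kilobase of the deposited gene length. Hand2 was the most abundant, at 187 ± 88.6 at 4% O2 and 130 ± 55.0 at 20% O2 (mean ± SD, n = 3 each, in CPM per kilobase). Phox2a followed at 4% O2 with 77.0 ± 20.8, and stood level with Gata2 at 20% O2, where Phox2a had 38.7 ± 10.7 and Gata2 39.3 ± 10.97. Gata2 at 4% O2 had 42.8 ± 18.2. Isl1 had 32.8 ± 8.08 at 4% O2 and 26.5 ± 13.1 at 20% O2, and Insm1 31.8 ± 18.0 at 4% O2 and 28.5 ± 16.6 at 20% O2. Within libraries, Hand2 exceeded Phox2a and Gata2 exceeded Isl1 in all 6, and Phox2a exceeded Gata2 in the 3 libraries at 4% O2 but in only 1 of 3 at 20% O2. Isl1 exceeded Insm1 in both libraries numbered 1 and was below it in the other 4, so this pair had no fixed order. Gata3 lay below both in all 6 libraries, at 7.99 ± 5.49 at 4% O2 and 6.90 ± 2.72 at 20% O2. Hand1, at 0.0310 ± 0.0217 at 4% O2 and 0.0626 ± 0.0246 at 20% O2, was close to undetected. In each library Hand2 exceeded at least 93.6% of all tested genes in CPM per kilobase, and Hand1 exceeded at most 6.18% of them.

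None of the factors passed a Benjamini-Hochberg adjusted p of 0.05 between 4% and 20% O2, that is, 0 of 7 in the two-sided quasi-likelihood test of edgeR. The same test called 0% of all 14979 genes tested in either direction. At an unadjusted p under 0.05, 1 factor was higher at 4% O2, Phox2a, and 0 were lower, against 3.01% of all genes higher and 1.42% lower. DESeq2 and limma-voom also called 0 of the 7, while DESeq2 called 0.381% of all genes higher and 0.0467% lower. Over all genes limma-voom called 0. Where a tool called 0 genes in all, its 0 calls among the factors and the lists below say nothing particular to them. Blocking on replicate number, edgeR called 0 of the 7 factors, against 0.0734% of all genes higher and 0% lower. In that fit 2 factors, Phox2a and Hand2, had an unadjusted p under 0.05, both higher at 4% O2, against 6.01% of all genes higher and 2.86% lower. All 7 passed the filter on low counts. The estimate lay above 0 for 6 of 7 factors, against 47.3% of all genes, and the median log2 fold change was 0.21 for the factors and -0.03 for all genes tested. The factors were chosen with earlier results of these data known, so these shares are no independent test.

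**Figure D1:**
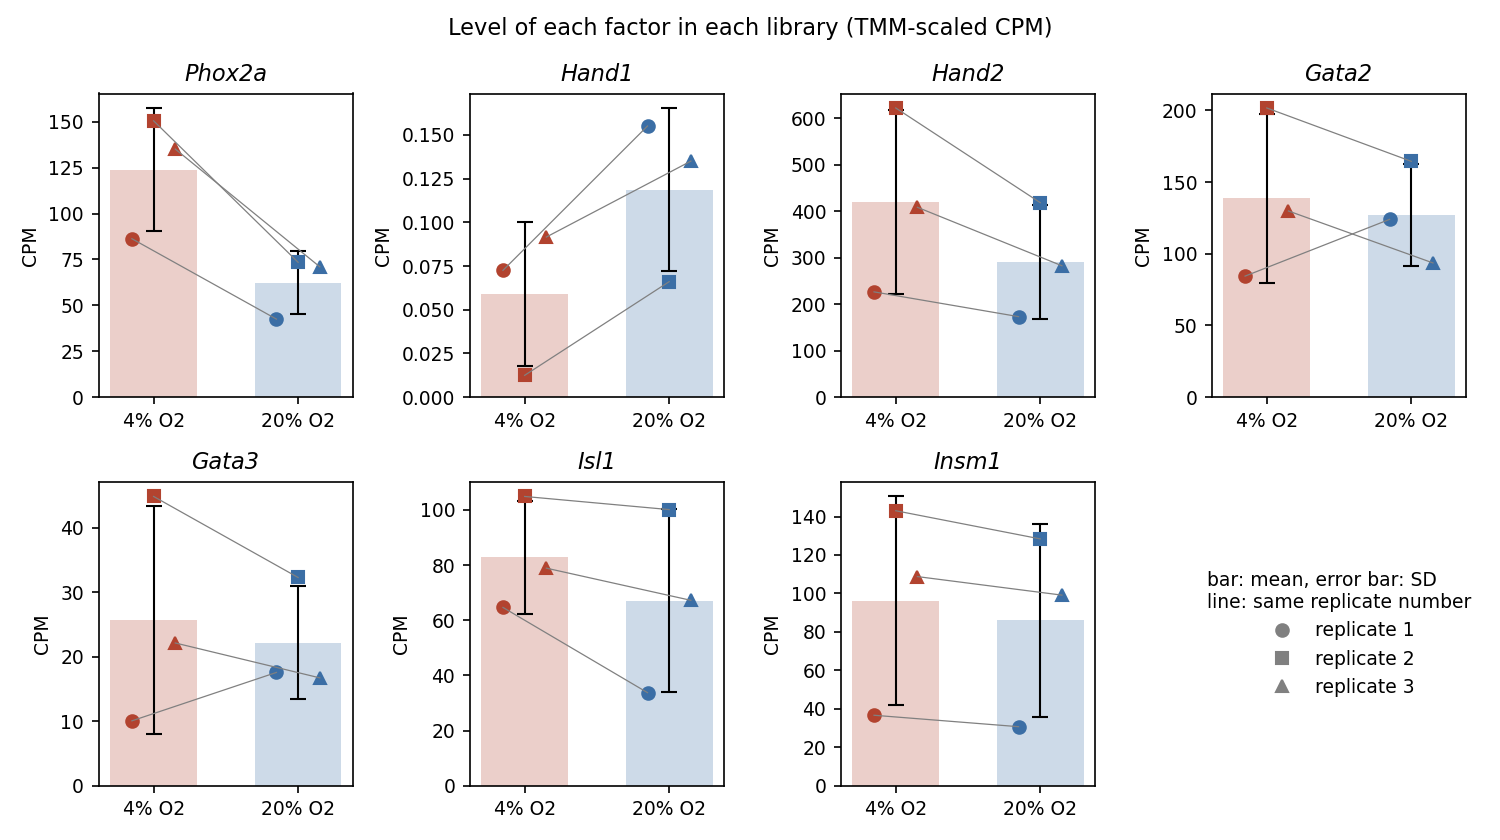
Level of each factor in CPM (TMM scaled, vertical axes from 0) in the 4% O2 libraries (left, red) and the 20% O2 libraries (right, blue). Symbols mark the replicate number, grey lines join libraries of the same number, bars are means and error bars SD (n = 3). Phox2a is the factor whose 4% O2 libraries all lie above the 20% O2 ones, and the libraries numbered 1 are lowest in both groups for Phox2a, Hand2, Isl1 and Insm1.

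Phox2a encodes a paired-like homeodomain protein that binds the promoters of Dbh and Th. It had 86.3, 150.5 and 135 CPM in 4% O2 libraries 1, 2 and 3, against 42.5, 73.4 and 71.0 CPM in 20% O2 libraries 1, 2 and 3. The lowest 4% O2 library exceeded the highest 20% O2 library, so the groups did not overlap. Means were 124 ± 33.5 CPM at 4% O2, against 62.3 ± 17.2 CPM at 20% O2 (n = 3, SD), a ratio of 1.99. The difference was much the same at each replicate number, with a log2 ratio of 4% over 20% O2 of 1.02, 1.04 and 0.93 for numbers 1, 2 and 3. In edgeR the log2 fold change of Phox2a was 0.99 (SE 0.30; unadjusted p = 0.00662, adjusted p = 0.781). The replicate block gave 0.995 (SE 0.20; unadjusted p = 0.000537, adjusted p = 0.128). Groups did not overlap, in the higher direction, for 1 of 7 factors and 6.33% of all genes tested, and in the lower direction for 0 of 7 factors and 3.72% of all genes. Leaving out both libraries numbered 1 was a setting chosen after the values had been seen. With the block kept, Phox2a then passed in edgeR (log2 fold change 0.96, adjusted p = 0.00284). Without the block it did not pass (edgeR adjusted p = 0.321). The fit with the block has 4 libraries for 3 coefficients and called 1028 genes in all, against 0 without the block. Adjusted p-values for Phox2a over all settings tried lay between 0.00284 and 0.99999.

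In mm10, Phox2a lies on chromosome 7, 101818313 to 101822726, on the plus strand. In GENCODE release M21 its last exon shares 95 bases with the oppositely oriented Inppl1, and the counting's use of strand is not given in the sources used here. Inppl1 had 107, 127 and 129 CPM at 4% O2 and 103, 124 and 98.9 CPM at 20% O2, with a log2 fold change of 0.16 (SE 0.23). Its groups overlapped, unlike those of Phox2a.

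The upstream sequences of Phox2a, the factor with the highest fold change at 4% O2, and of Hand2, the most abundant factor, are shown with the letters that the network's own factors and the hypoxia-inducible factors are known to bind. RefSeq promoter entries on GRCm38.p6, the assembly behind mm10, matched 5 of the 7 factors with 6 windows, and the 250 bases before the annotated start are given, 5′ to 3′. Capitals mark matches, on either strand, to 4 short motifs: ACGTG or GCGTG (core of the hypoxia response element), CANNTG (the E-box bound by HAND and related proteins), GATAA (bound by GATA factors) and TAAT (the homeodomain core).
Phox2a (chr7:101818063-101818312, plus strand): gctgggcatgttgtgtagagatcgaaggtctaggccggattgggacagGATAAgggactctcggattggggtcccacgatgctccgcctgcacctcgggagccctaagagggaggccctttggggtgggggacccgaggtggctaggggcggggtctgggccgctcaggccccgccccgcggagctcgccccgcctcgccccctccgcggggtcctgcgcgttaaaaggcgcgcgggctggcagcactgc
Hand2 (chr8:57320733-57320982, plus strand): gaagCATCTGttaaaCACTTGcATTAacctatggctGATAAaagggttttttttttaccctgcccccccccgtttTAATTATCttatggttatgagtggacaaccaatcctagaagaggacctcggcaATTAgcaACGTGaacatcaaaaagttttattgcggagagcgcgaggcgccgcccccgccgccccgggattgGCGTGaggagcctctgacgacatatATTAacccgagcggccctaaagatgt

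The Phox2a window, with 70.4% G and C, held 1 GATAA match, which began 202 bases before the start, and 0 matches to the other 3 motifs. The Hand2 window, with 49.2% G and C, held 2 hypoxia response cores, 2 E-boxes, 2 GATAA matches and 5 TAAT matches, and the stretch TAATTATC holds overlapping TAAT and GATAA matches. The hypoxia response cores began 115 and 51 bases before the start of Hand2. Over all 32851 RefSeq windows of the same length, 38.6% held a hypoxia response core, 66.2% an E-box, 22.6% a GATAA and 54.9% a TAAT. Isl1 had 1 hypoxia response core, 1 E-box, 1 GATAA and 2 TAAT matches in its window. The Gata2 window next to the deposited gene start had 1 hypoxia response core and no other match, and the second Gata2 window and the Gata3 window held 0 matches to any of the 4 motifs. A match describes letters and not a bound site, so these counts say nothing about binding in N1E115 cells.

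Hand2 encodes a basic helix-loop-helix protein that sympathetic precursors need for noradrenergic gene expression. Its levels were 227, 622 and 408 CPM in 4% O2 libraries 1, 2 and 3, against 173, 418 and 283 CPM in 20% O2 libraries 1, 2 and 3. Library 1 was lowest and library 2 highest in both groups, and the groups overlapped. Means were 419 ± 198 CPM at 4% O2, against 291 ± 123 CPM at 20% O2 (n = 3, SD), and the log2 fold change was 0.52 (SE 0.39; edgeR adjusted p = 0.996). At each replicate number Hand2 was higher at 4% O2, with log2 ratios of 0.39, 0.57 and 0.53 for numbers 1, 2 and 3. Such a direction at all 3 numbers was found for 4 of 7 factors (Phox2a, Hand2, Isl1 and Insm1) and 17.3% of all genes. Without 4% O2 library 2 the log2 fold change of Hand2 was 0.12, without 20% O2 library 1 it was 0.26, and without 20% O2 library 2 it was 0.88. With the replicate block the log2 fold change was 0.50 (SE 0.20), with an unadjusted p of 0.0323 and an adjusted p of 0.497. Hand2 lies on chromosome 8, 57320983 to 57324517, and shares 461 exon bases with the antisense transcript Hand2os1, which was not analysed here, so reads of the pair may not be separable.

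Hand1, the close relative of Hand2 on chromosome 11 (57828713 to 57832147) that is best known from heart and placenta, was at the edge of detection. It had 10, 2 and 14 counts in 4% O2 libraries 1, 2 and 3, against 20, 8 and 18 counts in 20% O2 libraries 1, 2 and 3. These are 0.0125 to 0.0916 CPM at 4% O2 and 0.0661 to 0.155 CPM at 20% O2, with overlapping groups. Every count of the table was an even number. The fitted log2 fold change was -1.01 (SE 0.90; edgeR adjusted p = 0.996). Leaving out 1 library at a time moved it between -1.48 and -0.53, and Hand1 failed the filter once counts were divided by 2.

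Gata2 and Gata3 encode zinc finger proteins that bind GATA sequences and maintain Th and Dbh expression in sympathetic neurons. Gata2 had 84.5, 202 and 130 CPM in 4% O2 libraries 1, 2 and 3, against 124, 165 and 93.6 CPM in 20% O2 libraries 1, 2 and 3. Gata3 had 10.1, 44.8 and 22.1 CPM in 4% O2 libraries 1, 2 and 3, against 17.6, 32.3 and 16.7 CPM in 20% O2 libraries 1, 2 and 3. Both genes were highest in 4% O2 library 2 and lowest in 4% O2 library 1, so the 20% O2 values lay inside the range of the 4% O2 values.

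The log2 fold change was 0.12 (SE 0.33) for Gata2 and 0.21 (SE 0.47) for Gata3, both with an edgeR adjusted p of 0.996. Both were lower at 4% O2 at number 1, with log2 ratios of -0.55 for Gata2 and -0.80 for Gata3, and higher at numbers 2 and 3. Without 4% O2 library 2 the log2 fold change was -0.25 for Gata2 and -0.47 for Gata3. Per kilobase, Gata2 exceeded Gata3 by 4.46 to 8.33 times at 4% O2 and by 5.05 to 7.004 times at 20% O2. Gata2 lies on chromosome 6 (88198664 to 88207032) and Gata3 on chromosome 2 (9857078 to 9878600), where it shares 155 exon bases with the antisense gene Gm13256. Of the other family members, Gata4, a factor best known from heart and endoderm, averaged 7.65 CPM per kilobase at 4% O2, against 7.59 CPM per kilobase at 20% O2. The ratio of Gata3 to Gata4 per length was 0.627 to 1.21 at 4% O2 and 0.455 to 1.48 at 20% O2, lowest in library 1 of each group. Gata1, Gata5 and Gata6 did not pass the filter on low counts.

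Isl1 encodes a LIM homeodomain protein of sympathetic and sensory neuron development (chromosome 13, 116298270 to 116309688). It had 64.6, 105 and 78.9 CPM in 4% O2 libraries 1, 2 and 3, against 33.7, 100.1 and 67.2 CPM in 20% O2 libraries 1, 2 and 3. The groups overlapped, and the 20% O2 library 1 was the lowest of the 6. The log2 fold change was 0.31 (SE 0.36; edgeR adjusted p = 0.996), and without that library it was -0.016. At number 1 the log2 ratio of 4% over 20% O2 was 0.94, against 0.07 and 0.23 at numbers 2 and 3. Isl2, its relative, had 2.80 ± 0.69 CPM at 4% O2, against 2.39 ± 0.45 CPM at 20% O2 (n = 3, SD).

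Insm1 encodes a zinc finger transcriptional repressor that neuroendocrine cells need to differentiate and sympathoadrenal precursors need to proliferate and make catecholamine enzymes (chromosome 2, 146221997 to 146225018). It had 36.6, 143 and 109 CPM in 4% O2 libraries 1, 2 and 3, against 30.7, 128 and 99.1 CPM in 20% O2 libraries 1, 2 and 3. Libraries of the same number lay close together, while library 2 exceeded library 1 by 3.90 times at 4% O2 and by 4.18 times at 20% O2. The log2 fold change between oxygen levels was 0.16 (SE 0.52; edgeR adjusted p = 0.996), and it was -0.24 without 20% O2 library 1 and -0.25 without 4% O2 library 2. With the block it was 0.18 (SE 0.20; adjusted p = 0.839). Insm2 had 0.22 ± 0.09 CPM at 4% O2, against 0.18 ± 0.04 CPM at 20% O2 (n = 3, SD).

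**Figure D2:**
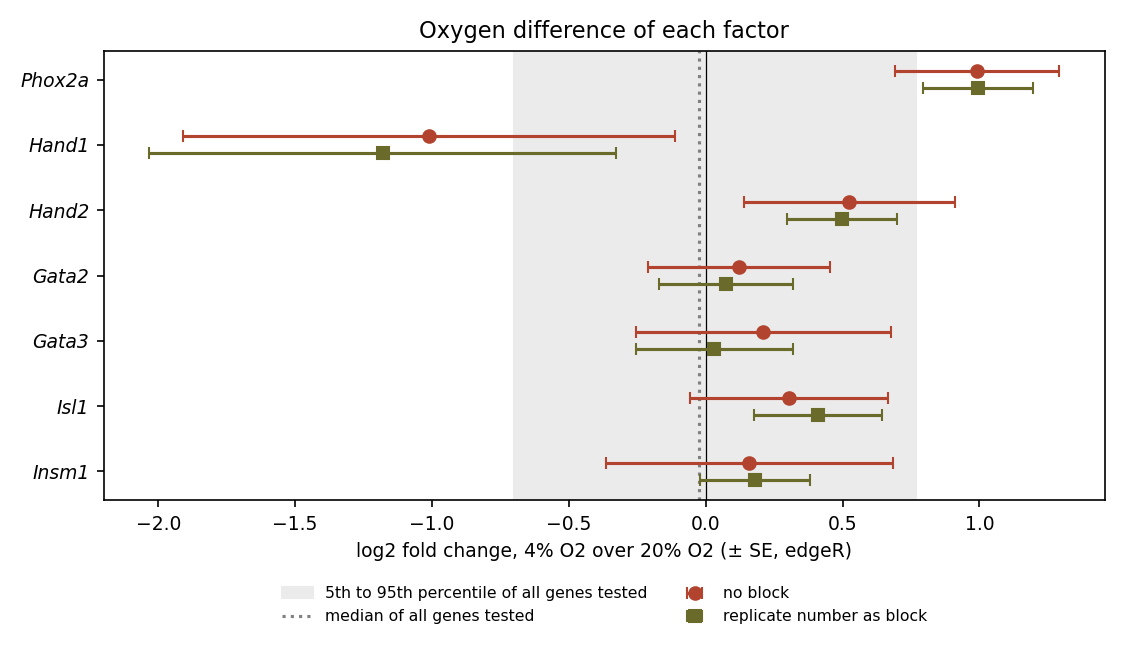
Log2 fold change of each factor, 4% over 20% O2, with its SE (horizontal axis), from edgeR without a block (circles) and blocked on replicate number (squares). The grey band spans the 5th to 95th percentile of all genes tested, -0.70 to 0.77, and Phox2a at 0.99 and Hand1 at -1.01 lie outside it, Hand1 with an SE of 0.90.

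For Hand2, Gata2, Gata3, Isl1 and Insm1 the replicate number held more of the spread than the oxygen level. For Phox2a, Hand2, Isl1 and Insm1, library 1 was the lowest and library 2 the highest of its group at both oxygen levels. This order of the 3 numbers in both groups was found for 4 of 7 factors and for 9.51% of all genes tested. Only the order that these factors show was counted, so the comparison with all genes is no test of them. Of the sum of squares of log2(CPM + 0.5) over the 6 libraries, oxygen level held 66.4% for Phox2a, 16.4% for Hand2, 14.4% for Isl1, 1.07% for Insm1, 0.668% for Gata2 and 0.0466% for Gata3. Replicate number held 33.5% for Phox2a, 83.2% for Hand2, 73.5% for Isl1, 98.8% for Insm1, 72.7% for Gata2 and 82.3% for Gata3. Over all genes tested the medians were 11.6% for oxygen level and 51.4% for replicate number, with 2 degrees of freedom for number and 1 for oxygen. The same shares were 40.1% for oxygen and 57.2% for number in Hand1, whose values are small against the added 0.5 CPM.

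In the edgeR fit with the block, the replicate number as a term gave an unadjusted p under 0.05 for 6 of 7 factors, and for 18% of all genes tested. After adjustment it called 0 factors and 0% of all genes. The smallest p among the factors was that of Insm1, at 3.46e-05 with an adjusted p of 0.0696, followed by Hand2 at 0.000873 with an adjusted p of 0.0847. This test was chosen after the values had been seen. The labels do not say what a replicate number marks. Library 1 of each group, the lowest for 4 of the factors, also held the highest sum of mesenchymal cell markers. The sum was 17.9 CPM at 4% O2, against 36.7 CPM at 20% O2. Most of it was Pdgfrb, at 11.7 CPM at 4% O2, against 24.5 CPM at 20% O2. Pdgfrb, Col1a1 and Dcn were highest in library 1 of both groups. Col1a2 was lowest there in both, at 0.04 CPM at 4% O2, against 0 CPM at 20% O2. Pdgfra was lowest in library 1 at 4% O2 and highest in it at 20% O2. Endothelial and blood cell marker sums were also highest in library 1 of both groups. The part of other cells in the factors' levels was not tested, and in bulk samples fewer cells of a type and less RNA per cell cannot be told apart.

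**Figure D3:**
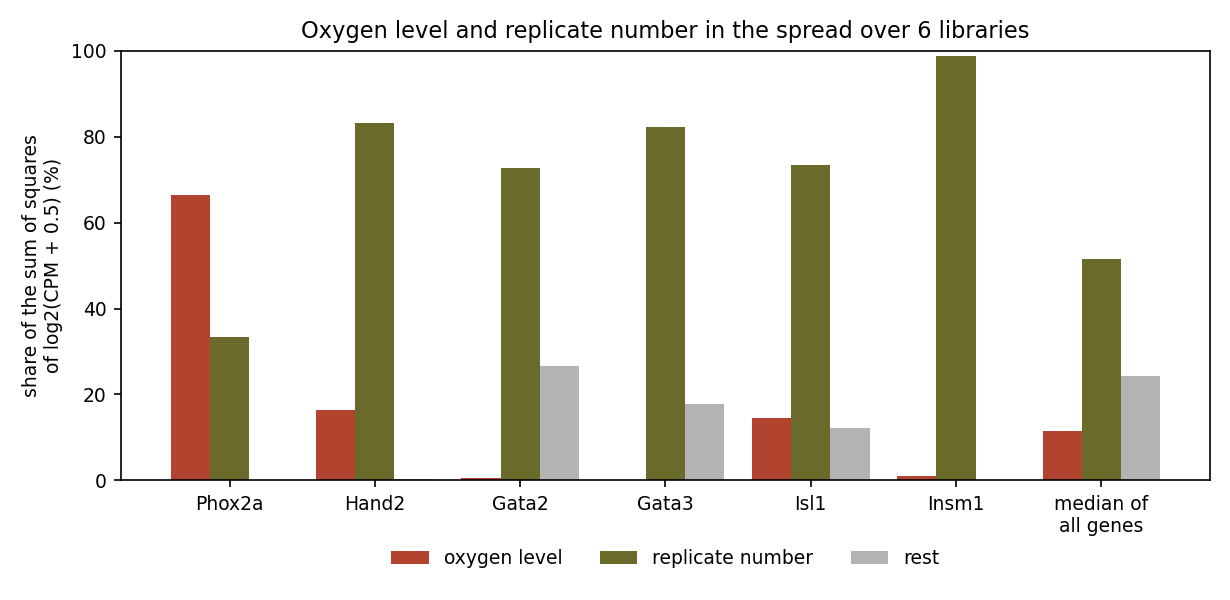
Share of the sum of squares of log2(CPM + 0.5) over the 6 libraries (vertical axis, %) held by oxygen level, by replicate number and by the rest, for 6 factors and the median of all genes tested. Oxygen level holds the most for Phox2a (66.4%), and replicate number holds 72.7% to 98.8% for the other 5 factors. The 3 medians over all genes are taken separately and need not sum to a whole.

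The genes whose log2 CPM most resembled each factor over the 6 libraries, among 9238 or 9239 genes of at least 10 CPM on average, had Pearson correlations of at least 0.976. A730011L01Rik and Prkar2b, a regulatory subunit of protein kinase A, were most like Phox2a, at 0.997 and 0.993. Thap7 and Arid1b were most like Hand2, Zfp664 and Msl1 most like Gata2, and Noa1 and Rps6kc1 most like Gata3. Elp2 and Wdr41 were most like Isl1, and Prc1 and Cdca7, genes of dividing cells, most like Insm1. Rpph1 and Pea15a were most like Hand1, whose values are small against the 0.5 CPM added before the log. With 6 libraries such values are common: 181 genes correlated above 0.9 with Phox2a and 393 to 457 with each of Hand2, Gata2, Gata3, Isl1 and Insm1. For Hand1 the number was 23.

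Other adrenergic factors showed no call either. Of 17 listed, 12 were tested, and 0 passed in either direction with edgeR, DESeq2 or limma-voom. In edgeR 0 had an unadjusted p under 0.05, against 3.01% of all genes higher and 1.42% lower. With the replicate block it was also 0, against 6.01% higher and 2.86% lower. The 12 tested had a median log2 fold change of 0.16. Mycn, the growth-driving factor amplified in many human neuroblastomas, averaged 121 ± 15.5 CPM at 4% O2, against 99.1 ± 13.4 CPM at 20% O2 (n = 3, SD), which in edgeR is 0.29 on the log2 scale (SE 0.23; adjusted p = 0.996). Tfap2b averaged 3.75 ± 0.32 CPM at 4% O2, against 2.53 ± 0.26 CPM at 20% O2, with an edgeR adjusted p of 0.996. Its groups did not overlap. This held, in the higher direction, for 1 of the 12 tested and 6.33% of all genes, and in the lower for 0 and 3.72%. Tbx2, a T-box factor, followed the replicate number, at 45.1, 256 and 136 CPM in 4% O2 libraries 1, 2 and 3, against 56.0, 203 and 134 CPM in 20% O2 libraries 1, 2 and 3.

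Proteins that bind the factors, or hold back their partners, were tested as a list of 21, of which 18 passed the filter. With edgeR, DESeq2 and limma-voom 0 were called, and the median log2 fold change was -0.04. In edgeR 0 had an unadjusted p under 0.05, against 3.01% of all genes higher and 1.42% lower. With the replicate block 3 of the 18 had an unadjusted p under 0.05, Id4, Id2 and Lmo4, all lower at 4% O2, against 2.86% of all genes lower, and 0 were called. Ldb1, the adaptor that joins LIM and GATA complexes, averaged 72.4 ± 15.5 CPM at 4% O2, against 55.1 ± 7.20 CPM at 20% O2 (n = 3, SD). Id4, an inhibitor of E proteins, had 0.41, 3.24 and 1.20 CPM in 4% O2 libraries 1, 2 and 3, against 3.04, 6.92 and 1.23 CPM in 20% O2 libraries 1, 2 and 3, with overlapping groups. Its log2 fold change was -1.20 (SE 0.73; edgeR adjusted p = 0.996). Zfpm1, which encodes the GATA cofactor FOG1, averaged 136 ± 56.5 CPM at 4% O2, against 97.1 ± 35.2 CPM at 20% O2.

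BMP signalling, the pathway that induces the network in the embryo, gave 0 calls among 11 tested of 14 listed with edgeR, DESeq2 and limma-voom. In edgeR 0 had an unadjusted p under 0.05, against 3.01% of all genes higher and 1.42% lower. With the replicate block 1 of the 11, Smad6, had an unadjusted p under 0.05, higher at 4% O2, against 6.01% of all genes higher. In that fit 0 of the 11 were called. The median log2 fold change of the 11 was 0.02. The ligand genes Bmp2 and Bmp4 had 0 counts in all 6 libraries, and Bmp7 averaged 24.7 CPM at 4% O2, against 30.4 CPM at 20% O2. The receptor gene Bmpr2 averaged 59.2 ± 5.27 CPM at 4% O2, against 46.7 ± 13.02 CPM at 20% O2 (n = 3, SD). Smad6, an inhibitory SMAD, had 8.36, 37.5 and 19.8 CPM in 4% O2 libraries 1, 2 and 3, against 7.38, 21.9 and 10.6 CPM in 20% O2 libraries 1, 2 and 3. Like Hand2 it was lowest in library 1 and highest in library 2 of both groups.

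Noradrenergic effector genes, some of which the factors are known to activate, numbered 20, of which 17 were tested. The list also holds general neuronal genes, and activation of its genes by the factors was not tested. Estimates lay above 0 for 15 of the 17, against 47.3% of all genes, and the median log2 fold change was 0.54. The list was chosen with earlier results of these data known, so these shares are no independent test. With edgeR 0 were called, and 6 had an unadjusted p under 0.05, all higher at 4% O2 (Th, Dbh, Slc18a1, Chga, Chgb and Ret), against 3.01% of all genes higher. With the replicate block 9 of the 17 had an unadjusted p under 0.05, all higher, against 6.01% of all genes. Slc18a1, a vesicular monoamine transporter gene, was called with the replicate block (adjusted p = 0.0222) and by DESeq2 (adjusted p = 0.00054), and limma-voom called 0. It had 23.6, 7.84 and 15.5 CPM in 4% O2 libraries 1, 2 and 3, against 4.58, 1.82 and 3.99 CPM in 20% O2 libraries 1, 2 and 3. Library 2, the highest for Hand2 and Insm1, was thus the lowest for Slc18a1 in both groups. Chga, a granule protein gene, averaged 494 ± 84.9 CPM at 4% O2, against 262 ± 27.3 CPM at 20% O2 (n = 3, SD), which in edgeR is 0.91 on the log2 scale (SE 0.23; adjusted p = 0.542).

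Dbh, a gene whose promoter PHOX2A is known to bind, had 463, 424 and 524 CPM in 4% O2 libraries 1, 2 and 3, against 163, 308 and 260.0 CPM in 20% O2 libraries 1, 2 and 3. Its groups did not overlap, and its log2 fold change was 0.95 (SE 0.27; edgeR adjusted p = 0.699). Groups did not overlap, in the higher direction, for 7 of the 17 tested effectors, Dbh and Th among them, and for 6.33% of all genes. In the lower direction it was 0 of 17, against 3.72% of all genes. At 4% O2 library 2 was the lowest for Dbh and the highest for Phox2a, while at 20% O2 it was the highest for both. Th averaged 510.0 ± 34.2 CPM at 4% O2, against 325 ± 54.7 CPM at 20% O2 (SD, n = 3; adjusted p = 0.963). Pnmt, which marks adrenaline-making chromaffin cells, had 0 counts in all 6 libraries.

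Factors of the mesenchymal state that some neuroblastoma cells adopt gave no call. Of 16 listed, 7 passed the filter and were tested, and 0 were called with edgeR, DESeq2 or limma-voom. In edgeR 0 had an unadjusted p under 0.05, against 3.01% of all genes higher and 1.42% lower. With the replicate block it was also 0, against 6.01% higher and 2.86% lower. The median log2 fold change of the 7 was -0.14. Sox9 averaged 21.8 ± 2.93 CPM at 4% O2, against 17.2 ± 4.41 CPM at 20% O2 (n = 3, SD), and Runx2 0.19 ± 0.12 CPM at 4% O2, against 0.34 ± 0.29 CPM at 20% O2. Twist2 and Meox2 had 0 counts throughout. The summed level of the 16 genes was 88.4 to 95.03 CPM at 4% O2 and 53.6 to 147 CPM at 20% O2, where library 1 gave the highest value.

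**Figure D4:**
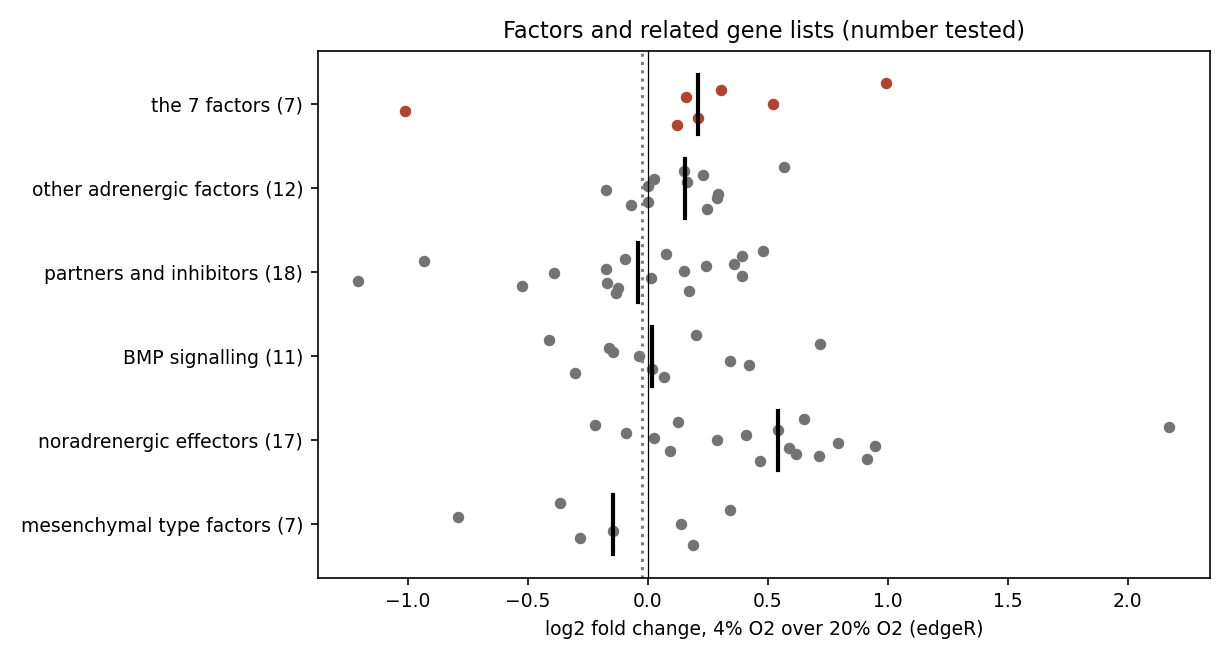
Log2 fold change, 4% over 20% O2 (edgeR, horizontal axis), of the 7 factors (red) and of the tested members of 5 related lists (grey), 1 point per gene, with the number tested in brackets. Thick bars are medians and the dotted line is the median of all genes tested, -0.03. The noradrenergic effectors have a median of 0.54 and the 7 factors one of 0.21.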

How the data were processed

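RNA sequencing of 6 N1E115 libraries, 3 per oxygen level, was analysed from the authors' deposited table. Per the file headers it holds a raw count and an RPKM value (per kilobase of a coding length) for each of 23358 genes and library. The deposited RPKM values were used only to check the counts against the lengths. Counts were 100% even; 0 columns of sample values were left unmatched, and 0% of rows lacked a gene name. The submitters' processing notes list Bowtie, TopHat2 2.0.6 and HTSeq as tools and mm10 as build. The labels name 2 different library kits; strand use and annotation were not given in the labels or notes.

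Counts as deposited were tested in R 4.3.3 with edgeR 4.0.16 (filterByExpr defaults, minimum count 10 and total 15, leaving 14979 genes; TMM; quasi-likelihood; Benjamini-Hochberg over all genes; threshold 0.05). SE was taken as the absolute log2 fold change over the root of F. Alternatives were DESeq2 1.42.0, limma-voom (limma 3.58.1), other scalings, no filter, counts divided by 2, a replicate block and each library left out. The fits were tested on simulated data, where DESeq2 made a larger share of false calls than edgeR or limma-voom. The limit DESeq2 had to meet there was relaxed after that share was seen. The simulation gave every gene the same relative spread and no effect of replicate number. It does not show how the fits perform where these differ. Deviations from group means correlated at 0.317, 0.604 and 0.212 between same-numbered libraries, all above 0.1. A pair with unlike numbers, 4% O2 library 1 and 20% O2 library 3, was also above 0.1, at 0.154. Neither these values nor the labels settle whether the numbers pair the libraries. The main fit left the numbers out, so it ignores any such pairing, and the block took them in as an alternative. The SE without and with the block was 0.52 and 0.20 for Insm1, and 0.39 and 0.20 for Hand2. Pairs of libraries of 1 group differed by 122 to 520 chi-square per degree of freedom, so none was a copy. Totals of 124259000 counts or more leave the spread between libraries, not counting error, as the limit for all but the rarest genes.

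The factors and the lists were chosen with earlier results of these data known. Named genes were the 7 factors, the 2 genes with the smallest p of each pathway list, every gene called, Mycn, and the 2 genes most like each factor. Of a list of 7 family relatives, Gata1, Gata4, Gata5, Gata6, Isl2 and Insm2 among them, 4 were tested and 0 called by edgeR, DESeq2 or limma-voom, with 0 at an unadjusted p under 0.05. Some genes of the lists are not reported here. Bmp2, Bmp4, Bmp7, Id2, Lmo4, Pnmt, Tbx2, Zfpm1, Th, Dbh, Pdgfrb, Twist2, Meox2 and Inppl1 were named after their values were seen. The same holds for Chgb, Snap25, Col1a1, Col1a2, Dcn and Pdgfra.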

Additional observations from a re-analysis of the deposited data

How the results depend on the processing

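Of 104 recalculated log2 fold changes of the 7 factors, 97 kept their direction and their side of the threshold, 6 turned sign and 1 passed the threshold. All 6 turns came from leaving out 1 library. Leaving out each library in turn gave ranges of 0.78 to 1.17 for Phox2a, -1.48 to -0.53 for Hand1, 0.12 to 0.88 for Hand2, -0.25 to 0.36 for Gata2, -0.47 to 0.59 for Gata3, -0.016 to 0.72 for Isl1 and -0.25 to 0.57 for Insm1; the cause was not tested. Gata2 was also -0.06 without 20% O2 replicate 3. Genes called over the whole table numbered 0 in the edgeR fit, 64 with DESeq2, 27 with no filter on low counts and 11 with the replicate block, and between 0 and 1 with a library left out. Leaving out both libraries numbered 1, chosen after seeing the data, gave 0 calls without the block and 1028 with it, where Phox2a passed at 0.96; that fit has 4 libraries for 3 coefficients, and the cause was not tested. The block changed no other call among the factors. Hand1 had no value with counts divided by 2.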
